A study of Mus musculus with 36 samples.

Results

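The glutamatergic neurons described here are 12 of the 36 single mouse midbrain neurons in the series, 6 labelled sSC and 6 labelled dSC, taken to stand for superficial and deep superior colliculus. They were chosen by their transmitter genes: the mean log2(value + 1) of Gad1 and Gad2, minus that of Slc17a6, had to be below -1 (this balance is called D). Of the 34 collicular cells, 6 of 22 sSC cells and 6 of 12 dSC cells met this rule. Each library is 1 neuron, and the letter of its title names its clone, the descendants of 1 radial glia progenitor marked on embryonic day 12 by MADM. This method recombines marked chromosomes so that both daughters of 1 division, and their progeny, carry a colour. The genotypes were M11GTTG-Fz10-CreER and M11GTTG-Sox2-CreER, in which the recombinase CreER is driven from Fz10 or Sox2 and so marks only progenitors that use that driver. The sSC members came from clones A, J, L, R and U (Fz10-CreER) and N (Sox2-CreER), and the dSC members from clones I, J and L (Fz10-CreER) and D, F and Q (Sox2-CreER). The drivers were thus split 5 to 1 in sSC and 3 to 3 in dSC. In all, 10 of the 18 clones are represented, and clones J and L have a member in both tissues. Mice of both sexes had a mixed C57/Bl6, FVB and CD1 background, and the labels give only an age range for experiments, from embryonic day 9.5 to postnatal day 30, with no age for a single cell. No clone had more than 1 member in a tissue, so each neuron is 1 replicate.

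The superior colliculus is the midbrain's layered map of visual space. Its superficial layers receive input from the retina and visual cortex, and its deep layers combine vision with other senses and send commands for turning the eyes, head and body. Excitatory neurons in both use the vesicular glutamate transporter Slc17a6 (VGLUT2), inhibitory neurons make GABA with Gad1 and Gad2, and the excitatory types of each layer are usually told apart by transcription factors, peptides and calcium-binding proteins.

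The files hold a normalised expression signal, the sum of an exon and an intron value per gene, that adds up to 2000000 in every cell. Read depth is therefore unknown, and a gene listed at 0 may have been missed. The 32 gene models that exceed 1% of the sum in some cell took unequal shares of it. They took 16.3% (clone J) to 45.9% (clone L) in sSC and 25.7% to 43.1% in dSC. All other values share what remains, so levels in sSC clones J and L are not on quite the same scale. A limma fit without these models called 0 genes between the tissues at an adjusted p under 0.05. Genes detected at 1 or more numbered 11088.5 ± 1735 in the sSC members and 11142 ± 2419 in the dSC members (SD, n = 6 each), a difference of -53.2 genes (exact permutation test, two-sided, p = 0.963, where the smallest p that 6 against 6 allows is 0.002165). The shallowest members were the dSC cell of clone D with 7095 genes and the sSC cell of clone L with 8852. All 7 neuronal markers, which include Snap25 and Syt1, had a median above 0 in both tissues, and their summed level ran from 1657 to 5289 in sSC and from 2606 to 4144 in dSC.

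Slc17a6, Gad1 and Gad2 selected the cells, so their levels are a description and carry no test. Slc17a6 was between 109 (clone L) and 849.9 (clone J) in the 6 sSC cells (median 423). Slc17a6 in dSC was between 105 (clone L) and 763 (clone J) in the 6 cells (median 241). Within clone J it reached 849.9 in the sSC cell and 763 in the dSC cell, and clone L had the lowest value of each tissue. Gad1 was listed at 0 in 1 of 6 sSC cells and at up to 55.3 in clone N (median 14.3). Across dSC, Gad1 was listed at 0 in 1 of 6 cells and at up to 53.6 in clone Q (median 33.7). Gad2 was listed at 0 in 1 of 6 sSC cells and at up to 80.9 in clone U (median 5.92). In dSC, Gad2 was listed at 0 in 1 of 6 cells and at up to 169.5 in clone I (median 37.1). Gad transcripts were therefore not absent from the chosen cells: the dSC cells of clones F and I carried Gad2 at 106 and 169.5 beside Slc17a6 at 345 and 369.8. The members closest to the threshold were the dSC cells of clones Q (D = -1.55) and F (-2.38). The nearest cells outside were the sSC cells of clones M (-0.93) and H (-0.85) and the dSC cell of clone C (-0.17). Among related genes that the rule did not use, the vesicular GABA transporter Slc32a1 was listed at 0 in 2 of 6 sSC cells and at up to 17.7 in clone R (median 2.23). Slc32a1 in dSC was listed at 0 in 5 of 6 cells and at up to 14.2 in clone F (median 0). The cortical glutamate transporter Slc17a7 was listed at 0 in 1 of 6 sSC cells and at up to 74.98 in clone U (median 21.5). Across dSC, Slc17a7 was listed at 0 in 1 of 6 cells and at up to 57.1 in clone Q (median 5.24). Slc17a8 (VGLUT3) did not exceed 0.838 in any member, and the glycine transporter Slc6a5 reached 53.8 in the dSC cell of clone F and 31.7 in that of clone L.

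**Figure D1:**
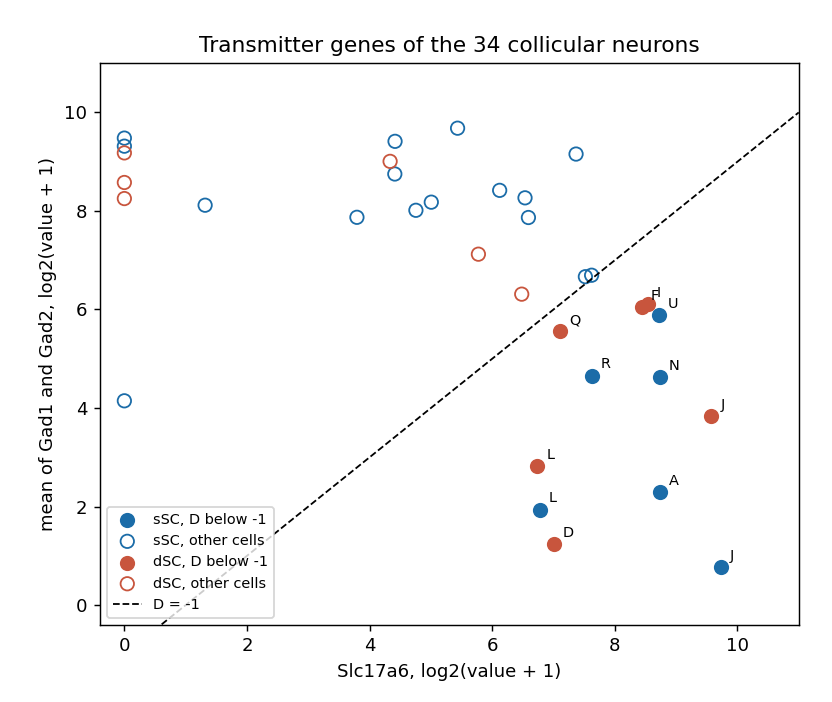
Slc17a6 (horizontal) against the mean of Gad1 and Gad2 (vertical), both as log2(value + 1), in the 34 collicular neurons; filled points are the 12 members, with their clone letters, open points the other cells, and the dashed line is D = -1. The member closest to the line is the dSC cell of clone Q (D = -1.55), and the members spread from there to the sSC cell of clone J, which had Slc17a6 at 849.9 and Gad1 at 0.

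The comparison asks which genes separate glutamatergic neurons of the superficial from those of the deep colliculus. Of 15159 genes tested, limma called 0 higher in sSC (0%) and 0 lower (0%) at an adjusted p under 0.05. At an unadjusted p under 0.05 there were 406 genes higher in sSC (2.68%) and 289 lower (1.91%). Together these are 695 genes, below the 5% of tested genes expected at that threshold without any difference between the tissues. These shares stand beside every count of list members given below. The smallest adjusted p was 0.342, for Vamp3. A limma fit without a mean-variance trend called 1 gene, Vamp3 (limma-adjusted p = 0.0027), and leaving out the dSC cell of clone J called 1, Gm13999 (limma-adjusted p = 0.00987). A fit that blocks on clone letter, where clones J and L alone inform the difference, called 0 genes and gave 361 higher and 757 lower at an unadjusted p under 0.05. Together those are 1118, above 5% of the genes tested. A fit that estimates the correlation within clones gave 865, and one with genes detected as a covariate 858, both above 5%. Most other fits lay below it, so the side of 5% depends on the fit. The labels name no animals, so these p-values measure the spread between clones. The differences below are therefore described by the values of the cells, in log2 units of value + 1, as sSC minus dSC. For every gene named from a list the limma-adjusted p was 0.997, and the p given is unadjusted. Over all tested genes the median difference was 0.07, and 52.6% of genes were higher in sSC.

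Among calcium-binding proteins, calbindin was higher in sSC, and calretinin had a higher median in dSC. Calbindin, Calb1, was between 218 (clone L) and 862 (clone J) in the 6 sSC cells (median 626). In dSC, Calb1 was listed at 0 in 1 of 6 cells and at up to 353 in clone J (median 108). The difference was 3.90 (SE 1.25, limma p = 0.00676), and 5 of 6 sSC cells lay above every dSC cell. The dSC cell of clone J was the only one above the lowest sSC cell. Calretinin, Calb2, was listed at 0 in 1 of 6 sSC cells and at up to 199 in clone A (median 64.9). Calb2 in dSC was between 106 (clone F) and 657 (clone L) in the 6 cells (median 201). 3 of 6 dSC cells lay above every sSC cell, a difference of -2.66 (SE 1.01, limma p = 0.0145). Those were clones J, L and Q, and clone L held both the lowest value of sSC and the highest of dSC. Without the sSC cell of clone L the Calb2 difference was -1.61, and without clones J and L it was -0.98. It was -6.03 with clone letter as a block, where only clones J and L inform it. Visinin-like 1, Vsnl1, a calcium sensor present in every member, was between 567 (clone N) and 1649 (clone U) in the 6 sSC cells (median 1020.4). Across dSC, Vsnl1 was between 243 (clone L) and 974 (clone I) in the 6 cells (median 565). The difference was 0.97 (SE 0.39, limma p = 0.0215), and 3 of 6 sSC cells lay above every dSC cell. Parvalbumin, Pvalb, was high in both tissues, between 253 (clone A) and 2175 (clone R) in the 6 sSC cells (median 571). In dSC, Pvalb was between 159.6 (clone I) and 3057 (clone D) in the 6 cells (median 831). The difference was -0.11 (limma p = 0.87), with overlapping cells, and leaving out 1 cell at a time gave -0.55 to 0.30. Other EF-hand genes had higher medians in dSC without reaching p under 0.05: Hpcal1, with medians of 65.2 and 241, differed by -2.23 (limma p = 0.0539), and S100a10, with 24.998 and 164, by -2.58 (limma p = 0.109). Among Fz10-CreER clones alone these differences were -0.67 and -0.29, and without the sSC cell of clone N that of Hpcal1 was -1.13. The list as a whole had 9 of 19 tested members higher in sSC and 10 lower, with a median difference of -0.11. Of the 19, 3 were at p under 0.05, beside 695 of 15159 over all genes tested.

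Among transcription factors, Barhl1 and Rorb lay on the sSC side and Meis1 on the dSC side. Barhl1, a BarH-type homeobox factor, was listed at 0 in 2 of 6 sSC cells and at up to 285 in clone J (median 30.6). Barhl1 in dSC was listed at 0 in 4 of 6 cells and at up to 3.63 in clone L (median 0). The difference was 3.63 (SE 1.40, limma p = 0.0166), and 4 of 6 sSC cells lay above every dSC cell. Clones A and N of sSC were at 0. Rorb, an orphan nuclear receptor, was listed at 0 in 1 of 6 sSC cells and at up to 349 in clone J (median 93.7). Across dSC, Rorb was listed at 0 in 2 of 6 cells and at up to 27.2 in clone Q (median 2.46). 4 of 6 sSC cells lay above every dSC cell, a difference of 3.52 (SE 1.46, limma p = 0.0242). Meis1, a homeodomain factor of the TALE class, did not exceed 4.52 in sSC, and was listed at 0 in 1 of 6 dSC cells and at up to 26.7 in clone J (median 16.5). The difference was -2.59 (SE 1.17, limma p = 0.0373), and 5 of 6 dSC cells lay above every sSC cell. Noncoding models overlap Meis1 on both strands.

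The factors commonly used to name excitatory midbrain types were scattered over single neurons of both tissues. Pou4f2 (Brn3b), a POU factor, was listed at 0 in 3 of 6 sSC cells and at up to 359 in clone A (median 64.8). In dSC, Pou4f2 was listed at 0 in 3 of 6 cells and at up to 28.2 in clone F (median 10.8). The sSC cells of clones A, L and N lay above every dSC cell. Pou4f1 (Brn3a) reached 363 in the sSC cell of clone N and 104 in the dSC cell of clone L, and was listed at 0 in 4 sSC and 2 dSC cells. These POU factors differed by 1.47 (limma p = 0.396) and -1.46 (limma p = 0.373). Leaving out 1 cell at a time moved Pou4f2 between 0.54 (without sSC clone A) and 2.24, and Pou4f1 between -2.76 (without sSC clone N) and -0.81 (without dSC clone L). Lhx9, a LIM homeobox factor, was present in both tissues, between 0.367 (clone L) and 98.7 (clone N) in the 6 sSC cells (median 38.96). Lhx9 in dSC was listed at 0 in 1 of 6 cells and at up to 145 in clone F (median 23.6). Ebf1, Ebf2 and Ebf3, early B-cell factors with helix-loop-helix domains, were found in both tissues, with the highest Ebf2 in the sSC cell of clone J (152) and the highest Ebf3 in that of clone U (182). Tcf7l2, a transcription factor of the Wnt pathway, had its highest value in the sSC cell of clone A (289.6) but a lower median in sSC (6.95) than in dSC (40.8), a difference of -1.51 (limma p = 0.251). That difference was -0.74 without the sSC cell of clone J and -2.38 without that of clone A, and -0.40 without clones J and L. Mab21l2 was listed at 0 in 2 of 6 sSC cells and at up to 140.3 in clone U (median 53.8). Across dSC, Mab21l2 was listed at 0 in 3 of 6 cells and at up to 61.6 in clone J (median 3.98). Bcl11a, a zinc finger factor, had medians of 16.2 and 2.51. Of the 23 listed excitatory factors, 19 passed the filter on low values, with 13 higher in sSC and 6 lower (median 0.41); Barhl1 alone was at p under 0.05. The list of regional and layer factors had 12 of 24 tested members higher in sSC and 12 lower, with a median difference of -0.04, with Rorb and Meis1 among those at p under 0.05. Factors of inhibitory neurons were mostly too low to test: 14 of 20, among them Gata2, Tal1 and Tal2, did not pass the filter, and of the other 6, 4 were higher in sSC and 2 lower (median 0.62).

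**Figure D2:**
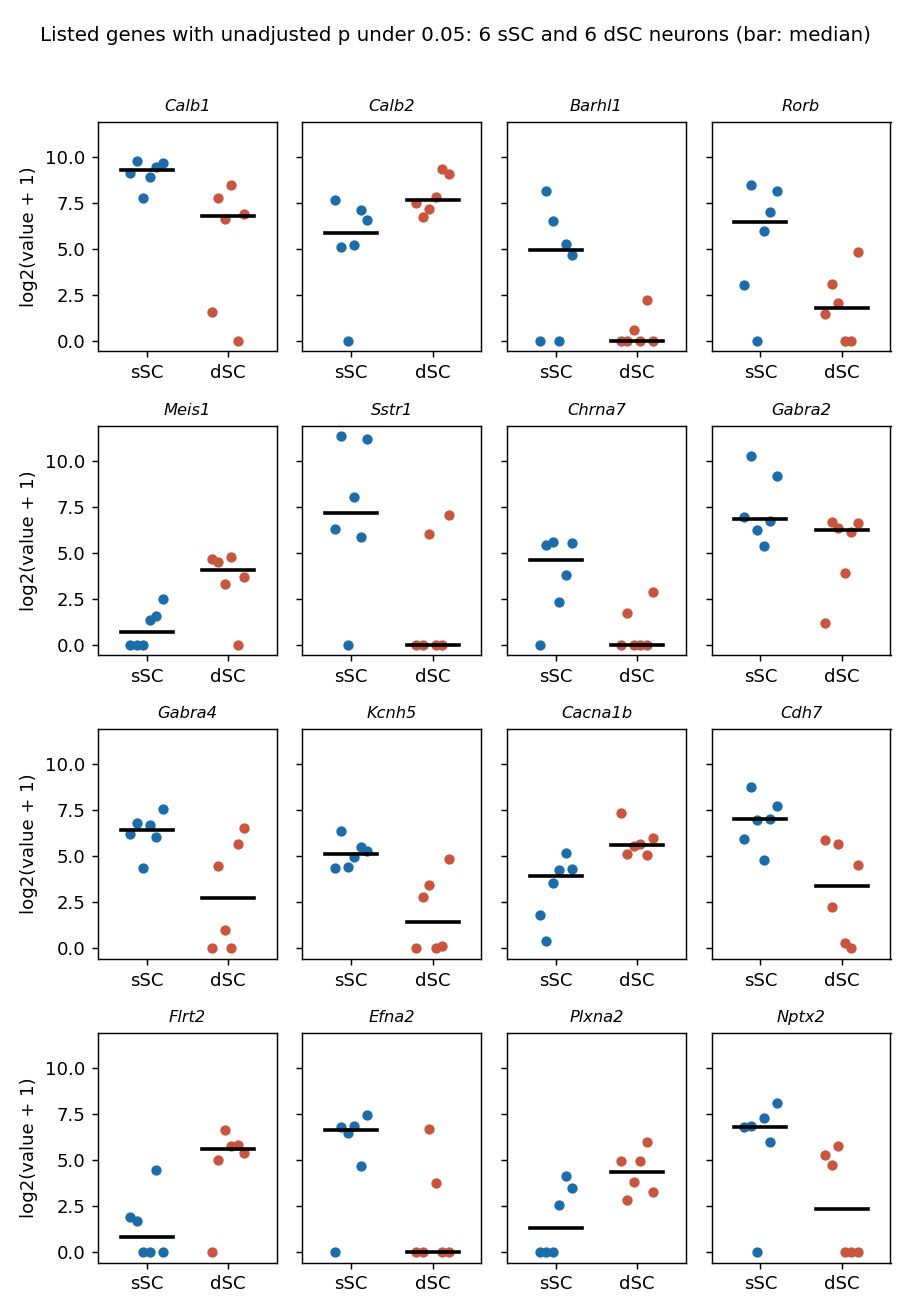
Log2(value + 1) of 16 listed genes with a limma p under 0.05 before adjustment, in the 6 sSC and 6 dSC glutamatergic neurons; each point is 1 neuron, the bar is the median, and points are ordered by clone letter. Calb1 lies between 218 and 862 in sSC against 0 to 353 in dSC, Calb2 has the opposite order of medians (64.9 and 201), and in most panels 1 or more cells overlap the other tissue.

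Neuropeptides were found in single neurons of both tissues. Somatostatin, Sst, was listed at 0 in 2 of 6 sSC cells and at up to 469.6 in clone J (median 242). In dSC, Sst was listed at 0 in 1 of 6 cells and at up to 5639.6 in clone L (median 233). The dSC cells of clones L and Q, at 5639.6 and 1637, exceeded all others, and the difference was -1.84 (limma p = 0.464). Leaving out 1 cell at a time gave -3.32 (without dSC clone J) to -0.72 (without sSC clone A or N). The tachykinin precursor Tac1 was listed at 0 in 2 of 6 sSC cells and at up to 179 in clone A (median 108). Tac1 in dSC was listed at 0 in 4 of 6 cells and at up to 837 in clone D (median 0). Its highest value was in the dSC cell of clone D, while 4 of 6 sSC cells lay between 90.6 and 179. Npy and Cartpt were each found in 3 sSC cells and 1 dSC cell, with Npy at 102, 123 and 51.02 in sSC clones A, L and U and at 62.9 in dSC clone I. Cartpt was at 115, 261 and 31.9 in sSC clones A, N and R, and at 124 in dSC clone Q. Grp appeared in 1 member, the dSC cell of clone I (43.4). Vgf, a secretory granule protein, was listed at 0 in 1 of 6 sSC cells and at up to 61.5 in clone N (median 26.1). Across dSC, Vgf was listed at 0 in 4 of 6 cells and at up to 54.6 in clone Q (median 0). The difference was 2.61 (SE 1.36, limma p = 0.0685), and 1 of 6 sSC cells lay above every dSC cell. Pcsk1, the convertase that cleaves prohormones, went the other way and was listed at 0 in 5 of 6 sSC cells and at up to 4.16 in clone R (median 0). In dSC, Pcsk1 was listed at 0 in 2 of 6 cells and at up to 92.6 in clone J (median 13.9). The difference was -2.85 (SE 1.30, limma p = 0.0387), and 3 of 6 dSC cells lay above every sSC cell. Of 25 listed peptide genes 17 were tested, with 11 higher in sSC and 6 lower (median 0.42), and Pcsk1 was the one at p under 0.05.

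Receptors on the sSC side included those for somatostatin, acetylcholine and GABA. The somatostatin receptor Sstr1 was listed at 0 in 1 of 6 sSC cells and at up to 2601 in clone J (median 171). Sstr1 in dSC was listed at 0 in 4 of 6 cells and at up to 131 in clone Q (median 0). 3 of 6 sSC cells lay above every dSC cell, a difference of 4.95 (SE 1.77, limma p = 0.0108). The sSC cells of clones J and U, at 2601 and 2361, stood far above all others, and that of clone L was listed at 0. Chrna7, the alpha 7 nicotinic subunit, was listed at 0 in 1 of 6 sSC cells and at up to 47.6 in clone L (median 27.3). Across dSC, Chrna7 was listed at 0 in 4 of 6 cells and at up to 6.19 in clone Q (median 0). The difference was 3.01 (SE 1.25, limma p = 0.024), and 4 of 6 sSC cells lay above every dSC cell. Ntsr1, a neurotensin receptor, was found at 17.1 in 1 sSC cell (clone R) and at 3.65 and 4.32 in dSC clones D and F. The GABA-A subunit Gabra4 was between 19.9 (clone L) and 187 (clone U) in the 6 sSC cells (median 88.8). In dSC, Gabra4 was listed at 0 in 2 of 6 cells and at up to 90.9 in clone Q (median 11.2). The difference was 3.34 (SE 1.28, limma p = 0.0154), and 3 of 6 sSC cells lay above every dSC cell. Gabrb1 overlaps it on the opposite strand. Gabra2, another GABA-A subunit, was between 40.2 (clone N) and 1211 (clone J) in the 6 sSC cells (median 114). Gabra2 in dSC was between 1.24 (clone D) and 101 (clone F) in the 6 cells (median 74.5). 4 of 6 sSC cells lay above every dSC cell, a difference of 2.32 (SE 1.02, limma p = 0.0334). Clones J and U again held the highest values, and without the dSC cell of clone D the difference was 1.53. The 25 tested peptide and monoamine receptors split into 12 higher and 13 lower in sSC, and the 19 tested GABA and glycine receptors into 8 higher and 11 lower (median -0.03). Glutamate receptors had 17 of 31 tested members higher in sSC and 14 lower, with a median difference of 0.39, and none of the 31 was at p under 0.05.

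Ion channels gave differences in both directions. Kcnh5, a voltage-gated potassium channel of the ether-a-go-go family, was between 19.995 (clone A) and 81.9 (clone J) in the 6 sSC cells (median 34.1). Across dSC, Kcnh5 was listed at 0 in 2 of 6 cells and at up to 27.7 in clone Q (median 2.98). The difference was 3.29 (SE 1.21, limma p = 0.0122), and 4 of 6 sSC cells lay above every dSC cell. The calcium channel subunit Cacna2d1 was between 81.8 (clone A) and 479.6 (clone J) in the 6 sSC cells (median 133). In dSC, Cacna2d1 was between 6.50 (clone D) and 159 (clone I) in the 6 cells (median 69.3). The difference was 1.68 (SE 0.78, limma p = 0.0426), and 2 of 6 sSC cells lay above every dSC cell. Without the dSC cell of clone D it was 1.11. Cacna1b, the pore of N-type calcium channels that drive transmitter release, was higher in dSC. It was between 0.347 (clone J) and 34.9 (clone R) in the 6 sSC cells (median 14.7). Cacna1b in dSC was between 32.5 (clone L) and 163 (clone D) in the 6 cells (median 48.2). 4 of 6 dSC cells lay above every sSC cell, a difference of -2.53 (SE 1.10, limma p = 0.0308). Potassium channels as a list had 21 of 35 tested members higher in sSC and 14 lower, with a median difference of 0.13, and sodium, calcium and HCN channels had 16 of 35 tested members higher in sSC and 19 lower, with a median difference of -0.07.

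Of the adhesion and guidance lists, 4 held 1 member each at p under 0.05: Cdh7 (24 tested), Efna2 (16), Flrt2 (27) and Plxna2 (36). Over all genes tested, 2.68% were higher and 1.91% lower at that threshold, so these counts lie near the background. Cdh7, a type II cadherin, was between 26.7 (clone N) and 442 (clone J) in the 6 sSC cells (median 129.8). Across dSC, Cdh7 was listed at 0 in 1 of 6 cells and at up to 59.2 in clone D (median 12.99). The difference was 3.77 (SE 1.21, limma p = 0.00487), and 5 of 6 sSC cells lay above every dSC cell. Efna2, ephrin-A2, a membrane ligand of Eph receptors used in collicular mapping, was listed at 0 in 1 of 6 sSC cells and at up to 173 in clone U (median 101). In dSC, Efna2 was listed at 0 in 4 of 6 cells and at up to 102 in clone I (median 0). The difference was 3.64 (SE 1.50, limma p = 0.0236), and 3 of 6 sSC cells lay above every dSC cell. Among Fz10-CreER clones alone the difference was 1.61. Flrt2, a leucine-rich repeat adhesion protein, was listed at 0 in 3 of 6 sSC cells and at up to 21.1 in clone R (median 1.12). Flrt2 in dSC was listed at 0 in 1 of 6 cells and at up to 100.1 in clone I (median 47.4). 5 of 6 dSC cells lay above every sSC cell, a difference of -3.43 (SE 1.33, limma p = 0.017). Plxna2, a plexin receptor for semaphorins, was listed at 0 in 3 of 6 sSC cells and at up to 16.6 in clone R (median 2.50). Across dSC, Plxna2 was between 6.16 (clone F) and 62.7 (clone L) in the 6 cells (median 21.2). The difference was -2.59 (SE 1.22, limma p = 0.0453), and 3 of 6 dSC cells lay above every sSC cell. At synapses, the pentraxin Nptx2, which clusters AMPA receptors, was listed at 0 in 1 of 6 sSC cells and at up to 272 in clone U (median 112). In dSC, Nptx2 was listed at 0 in 3 of 6 cells and at up to 53.6 in clone I (median 12.8). The difference was 3.21 (SE 1.49, limma p = 0.0427), and 5 of 6 sSC cells lay above every dSC cell. Cbln2, a secreted synaptic organiser, was listed at 0 in 3 of 6 sSC cells and at up to 654 in clone N (median 14.6). Cbln2 in dSC was listed at 0 in 1 of 6 cells and at up to 545 in clone F (median 102). Its highest value was thus in sSC, while 5 of 6 dSC cells carried it. It differed by -2.87 (limma p = 0.102), and by -1.26 with driver as a covariate. Neuritin, Nrn1, was abundant in every member, between 144 (clone L) and 729.7 (clone R) in the 6 sSC cells (median 689). Across dSC, Nrn1 was between 163 (clone F) and 983 (clone D) in the 6 cells (median 377). Ephrins and their receptors had 9 of 16 tested members higher in sSC and 7 lower, with a median difference of 0.17. Semaphorin, plexin, Slit and netrin genes had 15 of 36 tested members higher in sSC and 21 lower, with a median difference of -0.19. Cadherins and protocadherins had 13 of 24 tested members higher in sSC and 11 lower, with a median difference of 0.20, and neurexin, neuroligin and LRRTM genes had 15 of 27 tested members higher in sSC and 12 lower, with a median difference of 0.17. Vesicle release genes (12 of 29 higher, median -0.03), axon cytoskeleton genes (14 of 20 higher, median 0.10) and nuclear genes of oxidative phosphorylation (19 of 30 higher, median 0.10) held no member at p under 0.05. Cerebellins and their partners were split evenly (6 of 12 higher, median -0.11).

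Immediate early genes, which neurons switch on within minutes of strong activity or of handling, lay mostly on the dSC side. Of 24 listed genes 21 were tested, with 3 higher in sSC and 18 lower, with a median difference of -1.28 beside 0.07 for all genes. None passed limma's adjusted threshold, and 2, Ier3 and Ier2, had an unadjusted p under 0.05. Ier3 was listed at 0 in 3 of 6 sSC cells and at up to 160.0 in clone N (median 3.05). In dSC, Ier3 was between 3.43 (clone I) and 2143 (clone Q) in the 6 cells (median 593). 5 of 6 dSC cells lay above every sSC cell, a difference of -5.59 (SE 1.48, limma p = 0.00102). The exception in dSC was clone I. Ier2 was listed at 0 in 3 of 6 sSC cells and at up to 45.9 in clone R (median 12.1). Ier2 in dSC was listed at 0 in 1 of 6 cells and at up to 695 in clone D (median 117). The difference was -3.39 (SE 1.57, limma p = 0.0415), and 3 of 6 dSC cells lay above every sSC cell. Egr1 was listed at 0 in 1 of 6 sSC cells and at up to 444 in clone N (median 79.1). Across dSC, Egr1 was between 29.4 (clone I) and 589.6 (clone F) in the 6 cells (median 269.6). Egr1 differed by -2.10 (limma p = 0.0752), or -1.01 without the sSC cell of clone J, and Btg2 by -2.43 (limma p = 0.109). Fos, named after its values were seen, was between 14.5 (clone U) and 6455 (clone N) in the 6 sSC cells (median 245). In dSC, Fos was between 142 (clone I) and 2534 (clone D) in the 6 cells (median 972). The summed level of the list was 463 to 1652 in 5 sSC cells and 10721 in the sSC cell of clone N, against 954 to 5044 in dSC, where clone I was lowest. The list's median was -0.84 with driver as a covariate and -1.50 among Fz10-CreER clones alone. Without clones J and L it was -0.63, with 7 higher and 14 lower. Ier3, with Edem2, Lst1 and Lgals9, was listed because earlier results of these same cells had named it, so its direction is not independent evidence.

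Of the markers of other cells, most microglial genes had lower values in sSC. Of 13 tested microglial markers, 1 was higher in sSC and 12 were lower, with a median of -1.05, and none had a limma p under 0.05. The median was -1.64 with driver as a covariate and -2.21 among Fz10-CreER clones alone. Without clones J and L it was -0.24, with 5 higher and 8 lower, and with the class at D below 0 it was -0.74, with the same counts. No microglial marker was at 0 in every cell of a tissue. Their summed level was 625.6 to 2017 in sSC and 85.4 to 15212 in dSC. The dSC cells of clones F and J were far above the rest at 15212 and 12066, and that of clone D, at 85.4, was the lowest of all 12. Tyrobp, a signalling adaptor of microglia, was listed at 0 in 2 of 6 sSC cells and at up to 601 in clone U (median 254). Tyrobp in dSC was listed at 0 in 1 of 6 cells and at up to 2582 in clone J (median 1237). Cd68, a lysosomal protein of phagocytes, was listed at 0 in 3 of 6 sSC cells and at up to 106 in clone N (median 0.41). Across dSC, Cd68 was listed at 0 in 2 of 6 cells and at up to 1945 in clone F (median 129). Csf1r and Tmem119 had medians of 14.4 and 10.9 in sSC and of 55.5 and 90.6 in dSC. Lst1, best known from leukocytes, was listed at 0 in 3 of 6 sSC cells and at up to 143 in clone R (median 28.5). In dSC, Lst1 was listed at 0 in 1 of 6 cells and at up to 604 in clone F (median 266). The difference was -3.82 (SE 1.62, limma p = 0.028), and 5 of 6 dSC cells lay above every sSC cell. Lgals9, a galectin, was listed at 0 in 4 of 6 sSC cells and at up to 9.46 in clone N (median 0). Lgals9 in dSC was listed at 0 in 2 of 6 cells and at up to 160.4 in clone F (median 33.5). The part of microglial RNA in the differences between the tissues was not tested. Astrocyte markers were split, with 7 higher in sSC and 6 lower (median 0.03), and their sum ran from 808 to 1757 in sSC and from 1242 to 3815 in dSC, where clones J, L and Q were highest. Oligodendrocyte markers ran from 1570.2 to 6718 in sSC and from 1192 to 8635 in dSC. Of 12 tested, 3 were higher in sSC and 9 lower (median -0.32). With driver as a covariate they were split 6 and 6 (median -0.07). Among Fz10-CreER clones alone, 7 were higher and 3 lower (median 0.54). Mbp, a myelin protein overlapped by a ribosomal pseudogene, was between 459 (clone R) and 1262 (clone L) in the 6 sSC cells (median 752). Across dSC, Mbp was between 568 (clone J) and 3546 (clone F) in the 6 cells (median 1222). 3 of 6 dSC cells lay above every sSC cell, a difference of -0.90 (SE 0.42, limma p = 0.0417). Among Fz10-CreER clones alone it was 0.006. Vascular and meningeal markers summed to at most 162 in sSC and 377 in dSC, with a median of 0 for 8 of 10 genes in sSC and 5 of 10 in dSC. Of the 7 tested, 2 were higher in sSC and 5 lower (median -1.16, and -0.49 without clones J and L). Red blood cell genes summed to 50.7 to 2037 in sSC and 103 to 5533 in dSC, with 1 of 4 higher in sSC and 3 lower (median -1.02). Vascular and red blood cell markers had none at p under 0.05, and their sums overlapped between the tissues. Heat shock and stress genes had 7 of 18 tested members higher in sSC and 11 lower, with a median difference of -0.26. Among them, Edem2, which helps clear misfolded proteins, was listed at 0 in 3 of 6 sSC cells and at up to 72.1 in clone N (median 7.15). In dSC, Edem2 was between 30.8 (clone D) and 200.4 (clone J) in the 6 cells (median 56.5). The difference was -3.66 (SE 1.28, limma p = 0.00876), and 2 of 6 dSC cells lay above every sSC cell. Xbp1, a factor of the unfolded protein response, was between 86.7 (clone R) and 609.8 (clone J) in the 6 sSC cells (median 243). Xbp1 in dSC was listed at 0 in 1 of 6 cells and at up to 367 in clone J (median 78.3). The difference was 2.41 (SE 1.04, limma p = 0.0306), and 1 of 6 sSC cells lay above every dSC cell. Without the dSC cell of clone D the difference was 1.32.

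**Figure D3:**
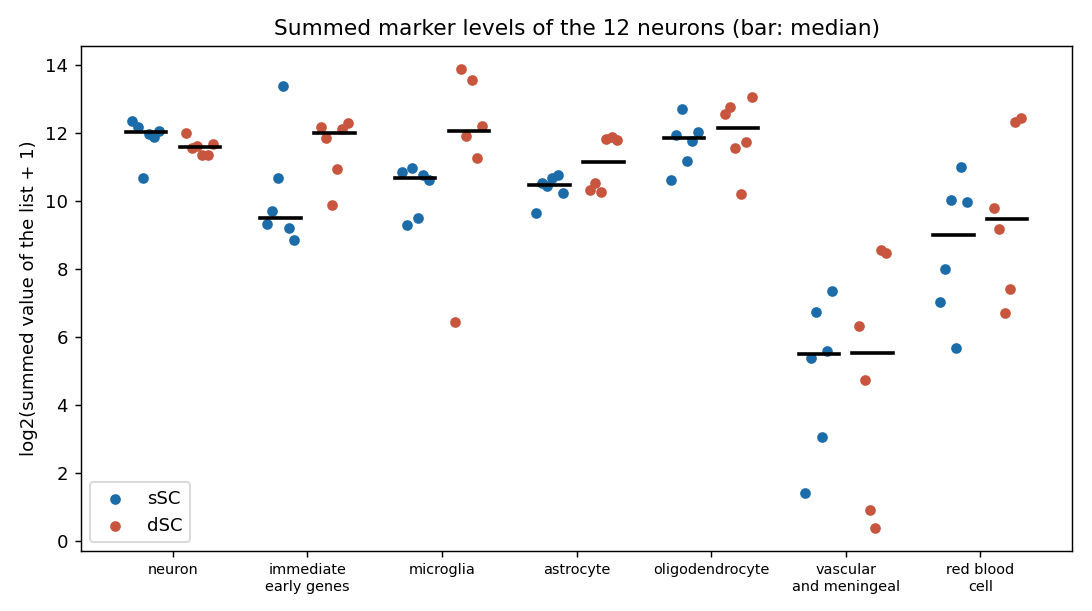
Summed value of each marker list and of the immediate early genes, as log2(sum + 1), in the 6 sSC and 6 dSC glutamatergic neurons; each point is 1 neuron and the bar is the median. Neuronal markers are high in all 12, the immediate early genes are higher in 5 of 6 dSC neurons than in 5 of 6 sSC neurons, with clone N of sSC above all (10721), and microglial markers range from 85.4 to 15212 in dSC.

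Apart from Ier3, the 10 genes with the smallest p in each direction lay outside the lists. Vamp3 (cellubrevin), a vesicle SNARE protein of endosomal traffic, was listed at 0 in all 6 sSC cells. Across dSC, Vamp3 was between 32.7 (clone D) and 108 (clone F) in the 6 cells (median 45.9). All 6 dSC cells lay above every sSC cell, a difference of -5.72 (SE 1.08, limma p = 2.25e-05). The limma-adjusted p was 0.342. The size depends on the value added before taking logs, being -9.01 with 0.1 and -2.64 with 10. The 2 sSC cells just outside the class carried Vamp3 at 34.4 (clone M) and 198 (clone H), and among the GABAergic sSC cells (D above 1) it was listed at 0 in 6 of 14 and reached 152. Camta1 overlaps Vamp3 on the same strand. Brinp3, a neuronal protein that noncoding models overlap on both strands, was listed at 0 in 1 of 6 sSC cells and at up to 7.52 in clone R (median 0.377). In dSC, Brinp3 was between 20.3 (clone L) and 127 (clone Q) in the 6 cells (median 36.9). The difference was -4.37 (SE 1.15, limma p = 0.000915), and all 6 dSC cells lay above every sSC cell. Ghr, the growth hormone receptor, was listed at 0 in 4 of 6 sSC cells and at up to 2.35 in clone A (median 0). Ghr in dSC was between 3.51 (clone I) and 77.7 (clone D) in the 6 cells (median 21.9). The difference was -4.11 (SE 1.13, limma p = 0.00139), and all 6 dSC cells lay above every sSC cell. Actr6, an actin-related protein of chromatin remodelling, was listed at 0 in 2 of 6 sSC cells and at up to 113 in clone U (median 50.4). Across dSC, Actr6 was between 115 (clone F) and 366 (clone D) in the 6 cells (median 248). All 6 dSC cells lay above every sSC cell, a difference of -4.14 (SE 1.19, limma p = 0.00213). The fibrillar collagen Col11a1 reached no more than 0.458 in any sSC cell, and was between 0.175 (clone F) and 199 (clone J) in the 6 dSC cells (median 24.1). Hsd17b10, a mitochondrial dehydrogenase, was found in 1 sSC cell (clone R, 20.2) and in 5 dSC cells at 30.01 to 699. Its difference of -5.14 was -3.03 among Fz10-CreER clones alone. Ferritin light chain, Ftl1, was between 451 (clone J) and 2717 (clone N) in the 6 sSC cells (median 1119). In dSC, Ftl1 was between 1439 (clone D) and 4014 (clone J) in the 6 cells (median 2973). The difference was -1.30 (SE 0.36, limma p = 0.00137), and 3 of 6 dSC cells lay above every sSC cell. Ribosomal protein Rpl12 differed by -3.34 and the small nucleolar model Gm24336, listed at 0 in every sSC cell, by -5.13. Ftl1 and Rpl12 belong to families with many near-identical copies, so reads may be split among them.

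On the sSC side, Gm13999, an antisense model overlapping Mapkbp1, was between 55.9 (clone N) and 3015 (clone J) in the 6 sSC cells (median 810.1). Gm13999 in dSC was listed at 0 in 5 of 6 cells and at up to 309 in clone J (median 0). The difference was 7.24 (SE 1.46, limma p = 5.19e-05), and 3 of 6 sSC cells lay above every dSC cell. The limma-adjusted p was 0.394. The dSC cell of clone J was the exception, and its clone mate in sSC held the highest value of all. The same pattern of clones held for Gmppb, an enzyme that makes GDP-mannose and is overlapped by Rnf123 on the opposite strand. It was between 11.3 (clone U) and 262 (clone J) in the 6 sSC cells (median 153). Across dSC, Gmppb was listed at 0 in 4 of 6 cells and at up to 37.8 in clone J (median 0). 4 of 6 sSC cells lay above every dSC cell, a difference of 5.47 (SE 1.27, limma p = 0.000264). Hs3st1, a heparan sulfate sulfotransferase, was between 44.9 (clone L) and 251 (clone J) in the 6 sSC cells (median 88.3). In dSC, Hs3st1 was listed at 0 in 1 of 6 cells and at up to 69.9 in clone I (median 1.36). The difference was 4.69 (SE 1.19, limma p = 0.000667), and 3 of 6 sSC cells lay above every dSC cell. Clone I was the single dSC cell above 4.22. Dhodh, the mitochondrial enzyme of pyrimidine synthesis, was between 25.8 (clone R) and 58.8 (clone N) in the 6 sSC cells (median 37.2). Dhodh in dSC was listed at 0 in 3 of 6 cells and at up to 13.5 in clone F (median 0.153). The difference was 4.44 (SE 1.14, limma p = 0.00077), and all 6 sSC cells lay above every dSC cell. Amigo2, a neuronal adhesion protein overlapped by Pced1b, was between 14.3 (clone L) and 107 (clone N) in the 6 sSC cells (median 62.8). Across dSC, Amigo2 was listed at 0 in 4 of 6 cells and at up to 53.4 in clone I (median 0). 3 of 6 sSC cells lay above every dSC cell, a difference of 4.60 (SE 1.26, limma p = 0.00133). Med7, a Mediator subunit, and Gm37335, an antisense model, were listed at 0 in every dSC cell and reached 134 and 2259 in sSC. The antisense model 1700022N22Rik had medians of 718 and 64.5, and the model ENSMUSG00000118521 medians of 101 and 0. Lin37, a subunit of a cell-cycle repressor complex overlapped by Hspb6, was between 65.4 (clone L) and 612 (clone U) in the 6 sSC cells (median 152). In dSC, Lin37 was listed at 0 in 3 of 6 cells and at up to 203 in clone J (median 0.873). Its difference of 4.94 was 2.85 among Fz10-CreER clones alone. Use of strand in counting is not given in the sources used here, so reads of overlapping genes cannot be told apart.

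**Figure D4:**
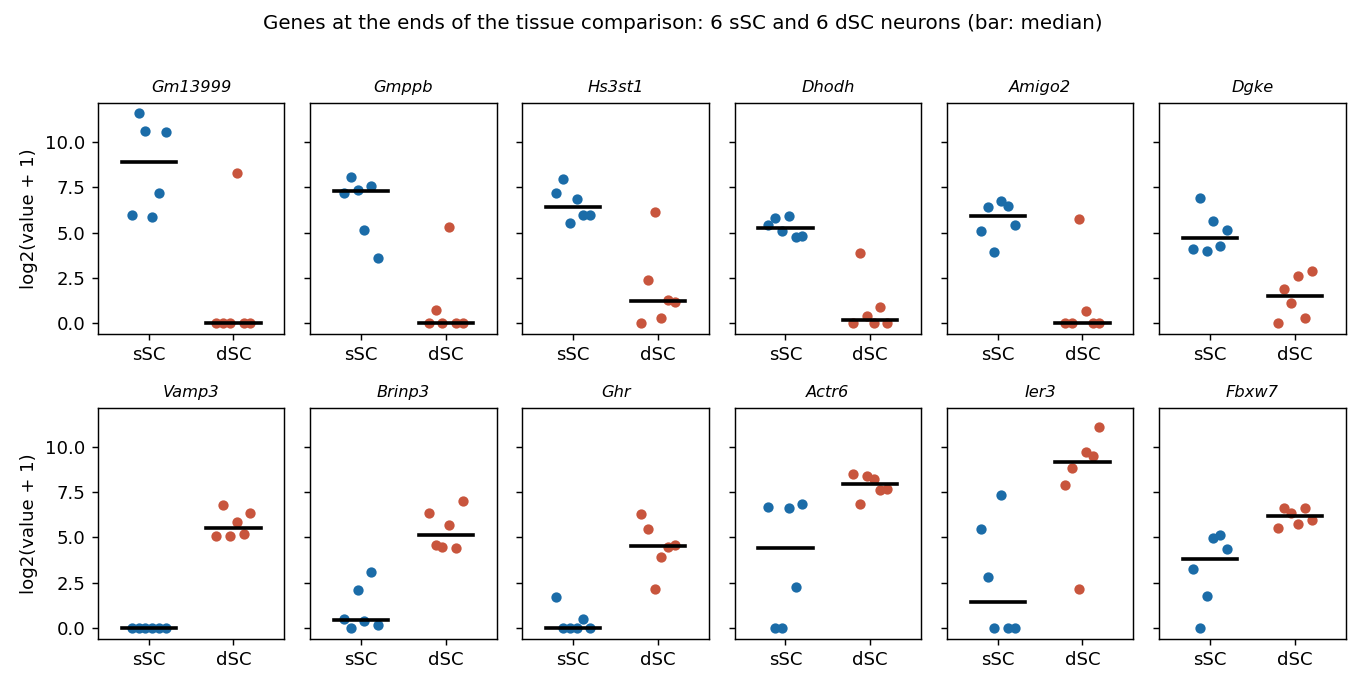
Log2(value + 1) of 12 genes from the ends of the tissue comparison in the 6 sSC and 6 dSC glutamatergic neurons; each point is 1 neuron and the bar is the median. Vamp3 is listed at 0 in all 6 sSC neurons and lies between 32.7 and 108 in dSC, and Gm13999 is listed at 0 in 5 dSC neurons and present in all 6 sSC neurons.

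Groups that did not overlap at all were rare, 9 genes with every sSC cell higher (0.0594% of those tested) and 9 with every sSC cell lower (0.0594%). For a gene without tied values, a share of 0.002165 of all splits of 6 against 6 separates fully in either direction. Both counts together lie below that share, so separation alone does not mark out a gene. Besides Dhodh, the genes higher in every sSC cell included Dynlrb1, a dynein light chain, which was between 1304 (clone R) and 1761 (clone J) in the 6 sSC cells (median 1444). Dynlrb1 in dSC was between 789 (clone F) and 952 (clone Q) in the 6 cells (median 876). The difference was 0.75 (SE 0.26, limma p = 0.00915), and all 6 sSC cells lay above every dSC cell. Bzw1, a regulator of translation initiation, was between 146.5 (clone A) and 447 (clone U) in the 6 sSC cells (median 230.3). Across dSC, Bzw1 was between 2.20 (clone L) and 146.1 (clone J) in the 6 cells (median 59.9). The difference was 2.65 (SE 0.86, limma p = 0.00542), and all 6 sSC cells lay above every dSC cell. Dgke, a diacylglycerol kinase, was between 14.6 (clone L) and 117 (clone J) in the 6 sSC cells (median 25.9). In dSC, Dgke was listed at 0 in 1 of 6 cells and at up to 6.36 in clone Q (median 1.92). All 6 sSC cells lay above every dSC cell, a difference of 3.53 (SE 1.15, limma p = 0.00535). Smarcb1, a subunit of the SWI/SNF remodeller, differed by 3.19 (limma p = 0.011), Psmb5, a catalytic subunit of the proteasome, by 1.35 (limma p = 0.0165), and Kank1, listed at 0 in every dSC cell but at only 0.137 in sSC clone A, by 3.25 (limma p = 0.00875). The mitochondrial ribosomal gene Mrpl46 and the processed pseudogene Gm5514 completed the set with 0.67 (limma p = 0.192) and 1.02 (limma p = 0.125). Beside Vamp3, Brinp3, Ghr and Actr6, the genes lower in every sSC cell were Nprl2, Fbxw7, Amotl1, Fgfr1 and Rac1. Nprl2, a subunit of the GATOR complex that restrains mTORC1, was between 32.999 (clone A) and 114 (clone L) in the 6 sSC cells (median 65.1). Nprl2 in dSC was between 136 (clone J) and 1202 (clone L) in the 6 cells (median 213). The difference was -2.20 (SE 0.67, limma p = 0.00318), and all 6 dSC cells lay above every sSC cell. Fbxw7, a substrate receptor of a ubiquitin ligase, was listed at 0 in 1 of 6 sSC cells and at up to 33.5 in clone R (median 13.9). Across dSC, Fbxw7 was between 44.3 (clone D) and 98.5 (clone L) in the 6 cells (median 71.5). The difference was -2.90 (SE 1.10, limma p = 0.0146), and all 6 dSC cells lay above every sSC cell. Amotl1, an angiomotin-like scaffold, Fgfr1, a fibroblast growth factor receptor, and Rac1, a small GTPase of the actin cytoskeleton, differed by -2.32 (limma p = 0.0271), -2.39 (limma p = 0.0395) and -0.97 (limma p = 0.1).

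Whether a tissue difference was particular to the glutamatergic class was asked by setting it against the same difference in the GABAergic cells (D above 1, 11 sSC and 4 dSC clone means). Of 14725 genes tested, limma called 0 (0%) at an adjusted p under 0.05. An unadjusted p under 0.05 was found for 582 (3.95%), also below the 5% expected without any interaction. Clones A, F, I, N, Q, R and U have a cell in each class, and this fit takes their means as independent. With clone letter as a block, 0 genes were called, and 1040 were at an unadjusted p under 0.05, above 5%. Nothing is therefore called particular to the glutamatergic neurons. The smallest adjusted p was 0.088, shared by Gmppb and AV356131. Gmppb was 5.47 higher in sSC among glutamatergic cells while the difference among GABAergic cells was -4.92, where the sSC median was 1.45 and the dSC median 164. For AV356131, a noncoding model beside a promoter, the differences were 3.27 and -5.20. The other genes among the 10 of smallest p on this side were Gm13999, ENSMUSG00000118521, Lin37, Lysmd1, Snx20, Slc27a2, Coq4 and Med8, with interaction values of 5.64 (Slc27a2) to 9.12 (Gm13999). On the opposite side the 10 were Ghr, Gm24336, Eif1-ps1, Lamc1, Gm49172, Uprt, Rpl28-ps1, Adgre1, Psmc3ip and Flrt2, from -6.56 (Gm49172) to -3.84 (Rpl28-ps1). For Calb1 the difference was 3.90 in glutamatergic cells and 0.45 in GABAergic cells (interaction 3.45, limma p = 0.105). For Vamp3 the values were -5.72 and -0.53 (interaction -5.19, limma p = 0.00641), and for Barhl1 3.63 and -0.10 (interaction 3.73, limma p = 0.0281). For Ier3 and Edem2 the GABAergic cells differed the same way, by -3.22 and -3.15, and for Lst1 by -4.94. The median difference over all genes was -0.38 among the GABAergic cells. The interaction had a median of 0.45 over all genes, with 458 higher and 124 lower at an unadjusted p under 0.05. Without the GABAergic sSC cell of clone B, which had only 2661 genes detected, that median was 0.17 (394 higher and 206 lower). With genes detected as a covariate it was 0.06 (375 higher and 310 lower).

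Members of one tissue were about as alike as members of different tissues. Pearson correlations of log2(value + 1) across the tested genes had a median of 0.51 over the 15 pairs within sSC, 0.47 over the 15 pairs within dSC and 0.49 over the 36 pairs of an sSC with a dSC cell. These are descriptions across genes, which are not independent replicates, and they moved with detection: the 4 cells with the fewest genes had the 4 lowest median correlations with the rest, 0.443 to 0.485. The cells of clone J correlated at 0.485 and those of clone L at 0.468, so clone mates lay within the range of other pairs. Single neurons were set apart by their own genes. The sSC cells of clones J and U shared high Sstr1, Gabra2, Rorb (349 and 282) and Mab21l2 (113 and 140.3). The sSC cell of clone N combined Pou4f1, Pou4f2 (176), Cbln2 (654) and Cartpt with the highest Fos. In dSC, clone D paired Tac1 (837) with the highest parvalbumin (3057) and the highest Nrn1 (983), and clones L and Q paired Sst with the highest Calb2. These combinations were noticed after the values were seen and rest on 1 or 2 cells each.

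**Figure D5:**
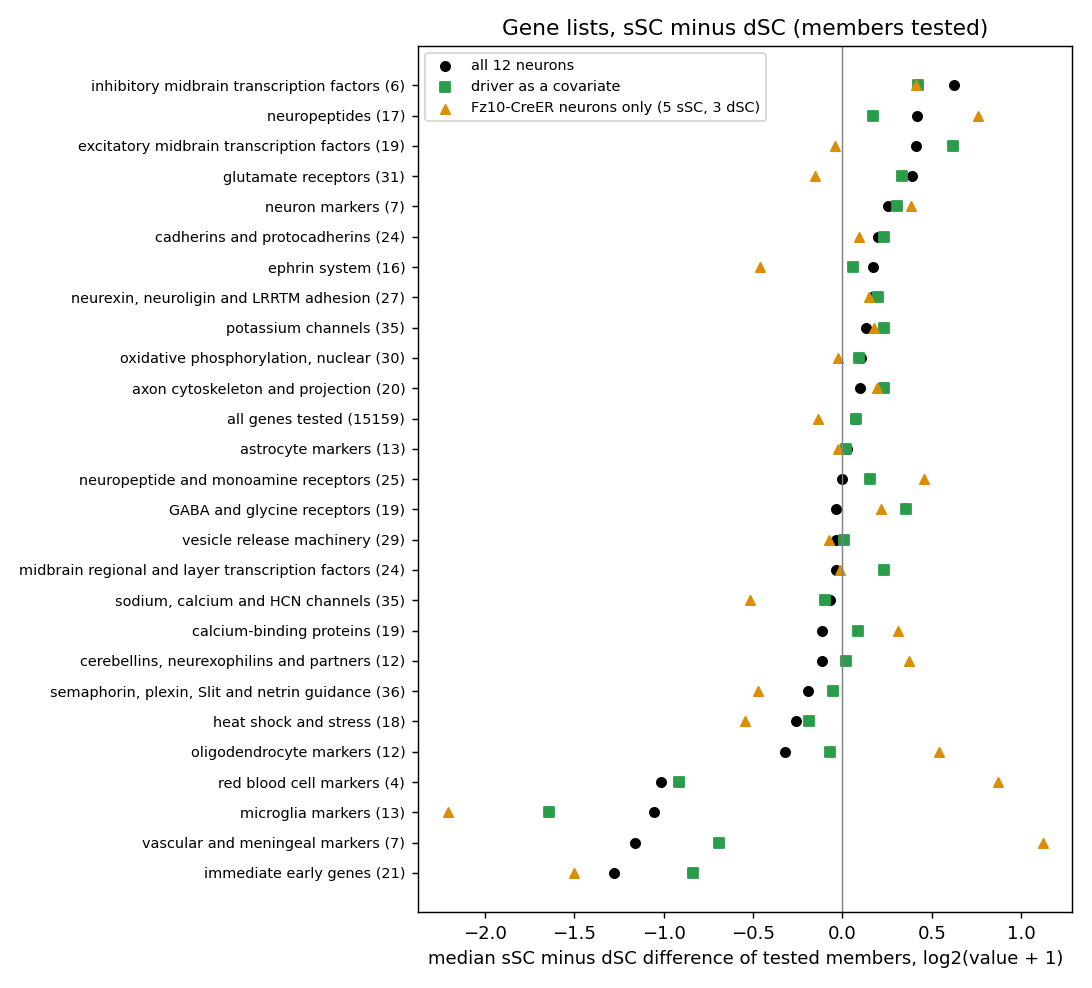
Median sSC minus dSC difference of the tested members of each list (number in brackets), in log2(value + 1), for all 12 neurons (circles), with driver as a covariate (squares) and for the Fz10-CreER neurons alone (triangles). For all 12 neurons most lists lie within 0.5 of 0, the exceptions being immediate early genes (-1.28), vascular (-1.16), microglial (-1.05) and red blood cell (-1.02) markers and inhibitory factors (0.62). Several lists, with the vascular (1.12) and red blood cell (0.87) markers among them, change sign in the Fz10-CreER neurons. The bracketed numbers are for all 12 neurons. In the Fz10-CreER neurons the vascular value rests on 3 members, against 7 for all 12, so the 2 medians cover different genes.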

How the data were processed

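RNA of 36 single neurons was measured (SMART-Seq Single Cell PLUS libraries), 1 neuron a library. The values are a normalised expression signal, as deposited, that the authors made from their reads; the submitters' processing notes list GRCm39 as the build, and STAR 2.7.9a with R 4.0.3 as tools. For the counter, annotation, use of strand and formula, the sources used here give nothing. Exon and intron values were added, and every cell then sums to 2000000, so depth is unknown and no counting interval can be given.

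Symbols, gene types and overlaps came from GENCODE M21, and symbols matched 52083 of 55359 genes. Overlaps rest on M21 positions, which are not those of the build listed for the reads, so the counted models may overlap otherwise. No positions are printed. Genes reaching 1 in 25% of the cells or more were tested on log2(value + 1) with limma 3.58.1 (trended, robust; R 4.3.3), with Benjamini-Hochberg adjustment over all genes tested. The table was fitted for the glutamatergic cells alone, and for the tissue by class interaction with the GABAergic cells, where cells of one clone and tissue were averaged. The size of the fit's estimates was tested on simulated data, independent normal values with known shifts added. Those data had no undetected genes and no paired clones, so they do not show how well genes are called here. Python 3.11.15, numpy 2.4.6, pandas 2.3.3 and matplotlib 3.10.9 made the summaries and plots.

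The members and gene lists were chosen with earlier results of these data known. Named genes are the 10 per direction with the smallest p in each fit, since none passed, up to 4 tested members of each list with the largest difference, and a fixed set of collicular genes. Some genes are not reported here. Genes whose groups do not overlap, and Fos, were named after their values were seen. Cells of one clone come from the same animal by construction, which pairs clones J and L within the glutamatergic class. In the interaction, clones A, F, I, N, Q, R and U also have a cell in each class. That fit takes their means as independent. The deviations of the paired cells from their tissue means correlated at 0.02 for J and 0.05 for L. Alternatives changed the added value, the filter, the scaling, the limits of D, the covariates and the clones included.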

Additional observations from a re-analysis of the deposited data

Results flagged for a closer look

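Each cell was compared with the others of its tissue in log2(value + 1). A cell was singled out by its gap to the nearest of the 6 cells, as a share of that tissue's whole range. That share had to exceed Dixon's critical value for 6 samples. The values printed below are not logged. Of 184 such comparisons 31 met this, and many concern genes present in 1 cell and absent or nearly absent in the rest. The critical value is set for a chance of 1 in 20 in normally spread values of genes not chosen by them. Many of these genes were chosen by their differences in the same cells, so the count cannot be set against that chance.

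In dSC, clone J stood above the others for Gm13999 (309) and Gmppb (37.8), and below them for S100a10 (0). Clone F stood high for Dhodh (13.5) and Slc32a1 (14.2). Clone I stood high for ENSMUSG00000118521 (1.79), Amigo2 (53.4), Npy (62.9) and Fgfr1 (66.4), and low for Ier3 (3.43). Clone L stood high for Barhl1 (3.63) and low for Meis1 (0) and Cbln2 (0). Clone Q stood high for Vgf (54.6) and Cartpt (124). Clone D, the member with the fewest genes detected, stood low for Flrt2 (0), Cacna2d1 (6.50), Tyrobp (0) and Lst1 (0).

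In sSC, clone A stood high for Ghr (2.35) and Gm5514 (255), and low for Efna2 (0). Clone L stood high for Col11a1 (0.458) and low for Calb2 (0), Nptx2 (0), Lhx9 (0.367) and Nrn1 (144). Clone R stood high for Hsd17b10 (20.2), Pcsk1 (4.16) and Ntsr1 (17.1). Clone N stood high for Mrpl46 (321). The causes were not tested.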

How the results depend on the processing

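The count of called genes between sSC and dSC stayed at 0 except in limma without a mean-variance trend, where it was 1 (Vamp3), and without the dSC cell of clone J, where it was 1 (Gm13999, difference 8.62). Leaving out each cell in turn gave 0 to 1. Genes at an unadjusted p under 0.05 numbered 695 in all (406 higher in sSC and 289 lower) and 1118 (361 and 757) with clone letter as a replicate block, a fit in which only clones J and L inform the difference. For the interaction the count was 582, against 889 without a filter, where more genes were tested, and 1040 with the replicate block. Both counts with the replicate block, 1118 and 1040, lie above 5% of the genes tested. Of 90 genes followed over 29 settings, 56 had an unadjusted p under 0.05, and 1 of these changed sign: Mbp, -0.90, was 0.547 with the replicate block and 0.00643 among Fz10-CreER clones alone. The cause was not tested. Of the other 34, 9 changed sign. The genes at small p were set apart by the same cells that most settings refit, so their kept sign is not independent support. The replicate block changed no call. The median of all genes ranged from -0.21 to 0.22 over the settings. The difference in genes detected was -862.5 to 481.5 when each cell was left out, and -954 with the class at D below 0.

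Depth is unknown, so a gene at 0 cannot be told apart from a missed one. The 6 cells per tissue, the uneven drivers and a class drawn from 3 genes of the same libraries limit every comparison. Ages, sexes and animals are not given per cell.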

Other observations

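One periaqueductal cell, labelled PAG, of clone H also had a glutamatergic balance (D = -5.92), and no comparison uses it. It carried Slc17a6 at 278, Tac1 at 3750.3, which is above every collicular member, and Ier3 at 1344, Pou4f2 at 125, Meis1 at 127, Brinp3 at 174, Vamp3 at 91.7 and Gm13999 at 137. The 3 collicular cells between the classes had Tac1 at 708 (sSC clone H), 399.6 (sSC clone M) and 98.1 (dSC clone C). In the same order, their Calb1 was 502, 103 and 119, and their Ier3 was 0, 317 and 60.98.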
